A study of Mus musculus with 27 samples.

Results

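The genes described here are the mouse cytochromes *Cyp2b9*, *Cyp2b10* and *Cyp2b13* and the nuclear receptors *Nr1i3* (CAR, the constitutive androstane receptor) and *Nr1i2* (PXR, the pregnane X receptor). These 5 genes were taken by symbol from the 36333 genes measured. They were selected with their changes between 5 and 20 months of age in view, so those changes are given as a description with no test. The samples were liver, omental adipose tissue and skeletal muscle of *Mlx*KO mice. Each tissue was sampled from 4 young (5 months) and 5 old (20 months) animals, which made 27 samples.

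The mice were males in which the Gt(ROSA)26Sortm1(cre/ERT2)Tyj allele, on a B6.129 background, had been crossed to Mlx Flox/Flox. All of them, at both ages, carried the tamoxifen-activated CreER recombinase driven by the broadly active ROSA26 promoter. All received tamoxifen at 75 mg/Kg, once a day on 5 days after weaning, at a weight of at least 15 g. The study names the vehicle as corn oil in its results and as mineral oil in its methods. The 4 young mice gave all 3 tissues and are called A, B, C and D here, in the order of the animal numbers that end their labels (X5L4299, X5L5001, X5L5238 and X5L5239 for liver). The old samples carry separate numbers. Their labels give 20 months, whereas their names begin with X18 and the study's list of mice has a lower age for numbers with these endings, and the ages used here are those of the labels. WT samples were not analysed here, so age was compared within *Mlx*KO tissues alone.

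Enzymes of the Cyp2b subfamily are membrane-bound monooxygenases of the endoplasmic reticulum that oxidise drugs, steroids and lipids. CAR and PXR are ligand-responsive transcription factors that pair with retinoid X receptors (RXRs), bind near drug-metabolism genes and raise their transcription. *Cyp2b10* is the standard target of CAR in mouse liver, whereas *Cyp2b9* and *Cyp2b13* are known as female-predominant liver genes whose sex difference depends on the pattern of growth hormone release. CAR is held in the cytoplasm by a chaperone complex, and signalling through the epidermal growth factor receptor keeps it there.

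The 3 cytochrome genes lie on the plus strand of chromosome 7. In RefSeq on GRCm38.p6, *Cyp2b10* (gene ID 13088) spans chr7:25897658-25926624, *Cyp2b13* (13089) spans chr7:26061388-26096197 and *Cyp2b9* (13094) spans chr7:26173350-26210661. *Nr1i3* (12355) lies at chr1:171213934-171218845 and, in the GENCODE annotation, overlaps *Tomm40l*, as *Cyp2b13* does *Rnf170-ps*, and *Nr1i2* (18171) lies on the minus strand at chr16:38248349-38294849. A stretch of sequence upstream of each cytochrome is given as a description. Those of *Cyp2b9* and *Cyp2b13* are alike almost base for base, and that of *Cyp2b10* is less alike. The transcripts of *Cyp2b9* and *Cyp2b13* are also closely alike. A link between upstream sequence and the age changes was not tested. Each stretch is the first 143 bases of a RefSeq window of 250 bases before the start that the promoter table takes, and lies before every annotated start of the gene. Capitals in *Cyp2b9* and *Cyp2b13* mark the bases that differ between those genes. Capitals in *Cyp2b10* mark bases that differ from, or have no partner in, the aligned *Cyp2b9* window.
Cyp2b9 (chr7:26173159-26173301): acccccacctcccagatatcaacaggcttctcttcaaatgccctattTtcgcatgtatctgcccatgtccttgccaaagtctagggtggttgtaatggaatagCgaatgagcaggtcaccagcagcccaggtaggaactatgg
Cyp2b13 (chr7:26061245-26061387): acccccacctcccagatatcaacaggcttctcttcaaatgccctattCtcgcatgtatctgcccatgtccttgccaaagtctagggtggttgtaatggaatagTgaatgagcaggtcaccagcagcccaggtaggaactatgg
Cyp2b10 (chr7:25897408-25897550): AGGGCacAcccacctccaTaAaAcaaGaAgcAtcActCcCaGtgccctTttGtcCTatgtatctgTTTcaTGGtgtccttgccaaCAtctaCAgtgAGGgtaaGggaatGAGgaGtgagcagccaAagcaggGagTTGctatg

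In the stretches shown, *Cyp2b9* and *Cyp2b13* were identical at 141 of 143 bases and differed at 2 positions, T48C and C104T (the *Cyp2b9* base first, counted from 1 at the 5′ end of the window). Over the full windows they were 99.2% identical, and *Cyp2b10* was 75.8% identical to each of them over 240 aligned bases. The last 59 bases of the *Cyp2b9* window and the last 107 of the *Cyp2b13* window lie inside the RefSeq gene records, whereas the *Cyp2b10* window ends at its record, so these identities include some transcribed sequence. The hexamer AGGTCA, which nuclear receptors of this group recognise, was found on either strand in 4607 of 32851 promoter windows of this length. It was present at positions 113 to 118 of the *Cyp2b9* and *Cyp2b13* windows and not in that of *Cyp2b10*. Neither the direct repeat of AGGTCA with 4 bases between its copies (DR4, 0.0152% of windows), which contains that hexamer, nor the STAT5-type motif TTCNNNGAA (7.02% of windows) was present in any of the 3 windows. A match to letters in such a window is not a measured binding site. Sequence farther upstream was not searched, so absence from these windows does not show that a gene lacks such sites. Exact DR4 matches were in 5 of 32851 windows, so their absence says little.

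The transcripts were also similar, which matters for how reads were assigned. *Cyp2b9* and *Cyp2b13* transcripts were 91.9% identical, *Cyp2b10* and *Cyp2b13* 88.5%, and *Cyp2b9* and *Cyp2b10* 87.5%. *Cyp2b9* shared 10.8% of its words of 50 bases with *Cyp2b13* and 0.547% with *Cyp2b10*, whereas *Cyp2b13* shared 27.3% with any other gene, including 13.8% with *Gm45225*. Reads of *Cyp2b13* could therefore have been divided between copies, and its level is the least certain of the 3. The receptors shared 0 such words with other genes.

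Values are those deposited, which are CPM scaled by a further factor per library. Libraries held 14384695 to 25673919 reads on genes, and 1 read was worth 0.0234 to 0.0806. Values of 3 reads or fewer were treated as at the detection floor, which lay between 0.0703 and 0.242 depending on the library. The tissues carried their defining transcripts. Summed values of 10 hepatocyte markers were 57466 to 199525 in liver, those of 6 adipocyte markers 6057 to 13587 in adipose tissue, and those of 5 muscle fibre markers 120264 to 155271 in muscle. *Xist* did not exceed 0.574 in any of the 27 samples, whereas *Ddx3y*, a Y-linked gene, was 61.5 to 156 in them, as male tissue would give. The value of *Mlx* itself was 18.8 to 32.4 (liver), 8.19 to 13.9 (adipose tissue) and 7.04 to 11.6 (muscle). A gene-level value also counts exons outside the deleted part, so it does not check the deletion.

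**Figure D1:**
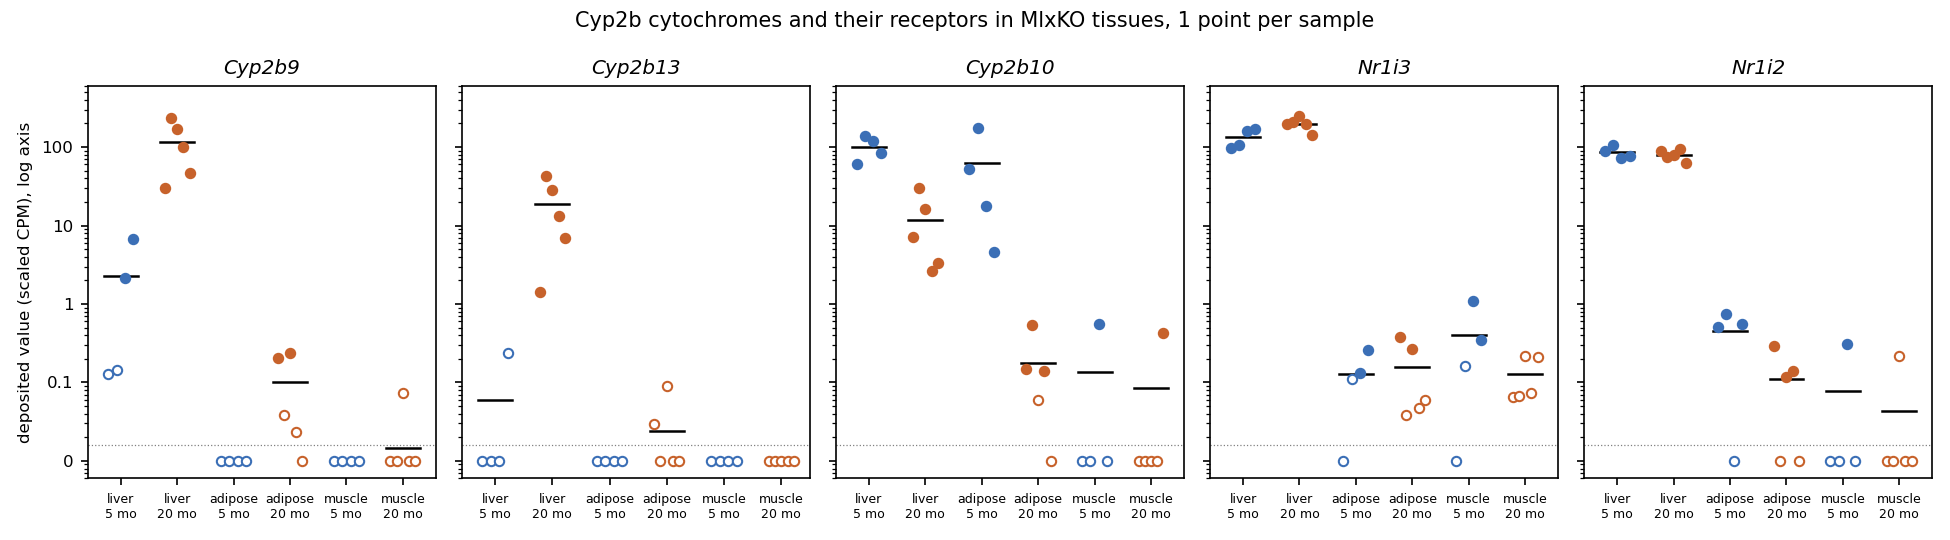
Deposited value (scaled CPM, log axis, with 0 drawn below the dotted line) of the 5 genes in each of the 27 samples; blue is 5 months, orange is 20 months, open points hold 3 reads or fewer and black lines are group means. *Cyp2b9* and *Cyp2b13* stand high in the 5 old livers, *Cyp2b10* in the 4 young livers and 4 young adipose samples, and the receptors in liver at both ages.

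*Cyp2b9* was close to absent in young liver and abundant in old liver. At 5 months it was 0.13 in mouse A, 0.15 in mouse B, 2.14 in mouse C and 6.72 in mouse D. At 20 months it was 30.0 in replicate 16, 234 in replicate 17, 168 in replicate 18, 101 in replicate 19 and 46.1 in replicate 74. The lowest old liver exceeded the highest young liver, and the means were 2.28 ± 3.10 (SD, n = 4) and 116 ± 85.4 (SD, n = 5). On the scale of log2(value + 1) the change was 5.25 (standard error 0.68), the most positive of the 12654 genes tested in liver. Both groups were spread widely, and the young livers of mice A and B held 3 reads or fewer.

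*Cyp2b13* showed the same pattern at a lower level. It was 0 in mice A, B and C and 0.24, or 3 reads, in mouse D, all at the detection floor. At 20 months it was 1.42 in replicate 16, 42.8 in replicate 17, 28.5 in replicate 18, 13.4 in replicate 19 and 6.97 in replicate 74. All 5 old livers were above all 4 young ones, with a log2 change of 3.61 (standard error 0.67). The pooled reads, 3 at 5 months and 1795 at 20 months, gave a ratio of 349 with a 95% interval of 119 to 1693 (exact binomial), which covers counting error alone. *Cyp2b13* ranked the old livers in the same order as *Cyp2b9*: replicate 17, then 18, 19, 74 and 16.

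*Cyp2b10* went the other way. It was 61.3 in mouse A, 138 in mouse B, 118 in mouse C and 83.5 in mouse D. At 20 months it was 7.17 in replicate 16, 30.0 in replicate 17, 16.2 in replicate 18, 2.61 in replicate 19 and 3.36 in replicate 74. Every old liver lay below every young one, and the means of 100 ± 34.4 (SD, n = 4) and 11.9 ± 11.5 (SD, n = 5) differed 8.45-fold. The log2 change was -3.38 (standard error 0.56), the second most negative of the genes tested. The old livers with the most *Cyp2b9*, replicates 17 and 18, also had the most *Cyp2b10*, whereas replicates 19, 74 and 16 were in opposite orders for the paralogs.

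Because the genes differ in length, their levels were compared as value per kb of exon. In young liver *Cyp2b10* was at 47.5 ± 16.3 per kb, *Cyp2b9* at 1.22 ± 1.65 and *Cyp2b13* at 0.032 ± 0.064 (SD, n = 4). In old liver *Cyp2b9* was at 61.8 ± 45.5 per kb, *Cyp2b13* at 9.93 ± 9.01 and *Cyp2b10* at 5.62 ± 5.43 (SD, n = 5), the last 2 of which overlapped. *Cyp2b10* supplied 91.4% to 99.9% of the summed Cyp2b level in the 4 young livers and 1.98% to 16.9% in the 5 old livers. *Cyp2b9* supplied 0.118% to 8.28% and then 77.2% to 86.6%. The summed level itself was 29.1 to 65.4 per kb in young liver and 20.2 to 162 per kb in old liver, and these ranges overlapped. The dominant transcript thus differed between every young and every old liver, while the total did not separate the ages.

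**Figure D2:**
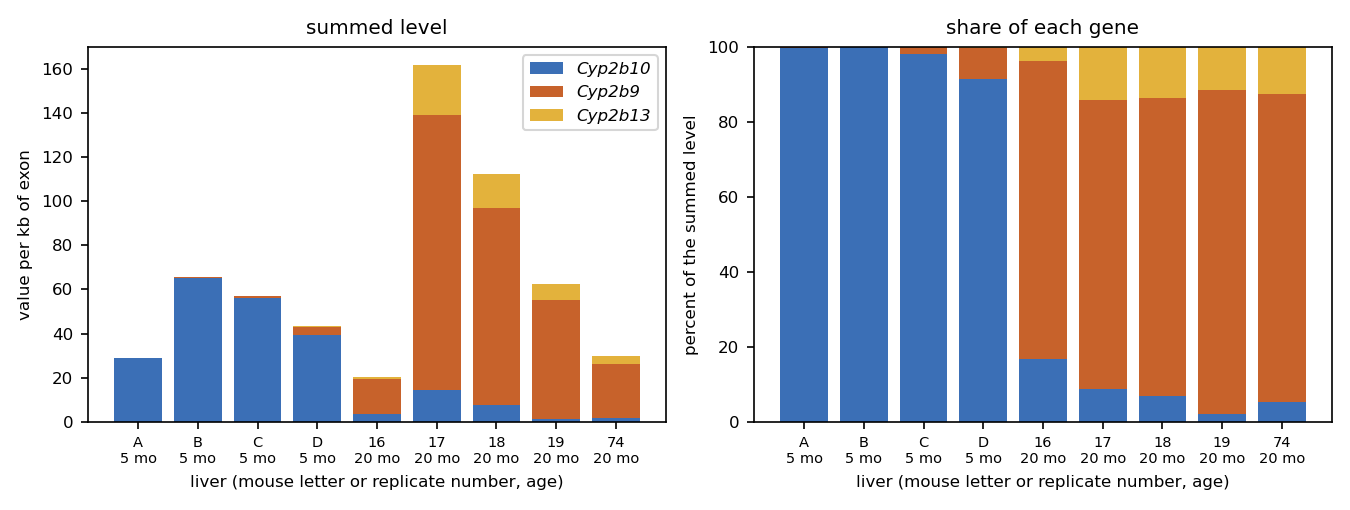
Level of *Cyp2b10*, *Cyp2b9* and *Cyp2b13* per kb of exon in each of the 9 livers, stacked as values (left) and as percent of their sum (right). *Cyp2b10* makes up 91.4% or more of every young liver and 16.9% or less of every old liver.

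The receptor transcripts differed much less between the ages. *Nr1i3* was 96.5, 106, 158 and 169 in mice A, B, C and D. At 20 months it was 194, 208, 251, 196 and 144 in replicates 16, 17, 18, 19 and 74. The groups overlapped through replicate 74, and the means were 133 ± 36.4 (SD, n = 4) and 199 ± 37.96 (SD, n = 5). The log2 change of *Nr1i3* was 0.60 (standard error 0.20), so its level was the higher at the age when its target *Cyp2b10* was the lower. Without replicate 74 that change was 0.71.

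*Nr1i2* was 89.9, 105, 72.3 and 76.9 in young liver and 90.1, 74.9, 80.0, 93.8 and 63.0 in old liver, in the same order of animals. The groups overlapped almost entirely, at 86.0 ± 14.7 (SD, n = 4) and 80.3 ± 12.3 (SD, n = 5), with a log2 change of -0.10 (standard error 0.14). Per kb of exon the receptors stood close together in young liver, *Nr1i3* at 30.0 ± 8.25 and *Nr1i2* at 33.7 ± 5.77 (SD, n = 4). In old liver *Nr1i3* was at 45.0 ± 8.60 per kb and *Nr1i2* at 31.5 ± 4.82 (SD, n = 5). Among young livers, *Nr1i3* and *Cyp2b9* were both highest in mouse D and next in mouse C, whereas *Cyp2b10* was highest in mouse B. *Cyp2b9* was at the floor in mice A and B, so it could not order them.

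All 5 genes passed the filter in liver, which kept genes that reached a value of 1 in 4 or more samples. *Cyp2b13* passed through the old livers alone and *Cyp2b9* had 2 young livers at or above 1. In liver 19.8% of all genes tested had an adjusted p under 0.05 between the ages, 1269 genes higher and 1239 (9.79%) lower at 20 months. The 5 genes were chosen on this contrast, and nothing is read from how many of them moved.

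Hepatocyte markers were also lower in old liver. All 10 were detected, their summed value was 136803 to 199525 at 5 months and 57466 to 118591 at 20 months, and the ratio of the medians was 1.46. Replicate 74 had the lowest sum. Without it the log2 change was 5.49 for *Cyp2b9*, 3.79 for *Cyp2b13* and -3.11 for *Cyp2b10*. The summed 8 pericentral markers, which mark the zone where *Cyp2b10* is normally induced, were 10541 to 21042 and 8561 to 16241, and the 6 periportal markers 2749 to 3868 and 1823 to 2587. The 4 cholangiocyte markers summed to 26.5 to 34.2 and 15.6 to 24.96. The summed 4 macrophage markers were 96.0 to 143 and 109 to 316, the 4 B cell markers 1.24 to 6.48 and 6.63 to 14.03, and the 5 mesothelium markers 5.04 to 10.12 and 9.02 to 23.8, all of them detected. The part of these shifts in the results was not tested, and in bulk tissue fewer cells of a type and less RNA per cell cannot be told apart.

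For each member, the most correlated genes over the 9 livers were listed as a description. After the mean of each age was subtracted from log2(value + 1), the genes most correlated with *Cyp2b9* were *Gpr89* (Pearson r = 0.96), *Oma1* (0.96) and *Gulo* (0.96). Those for *Cyp2b13* were *Arhgef19* (0.97), *Mettl7a1* (0.96) and *Aldh1l1* (0.96), and those for *Cyp2b10* were *Tsen15* (0.95), *Usp28* (0.94) and *Srcin1* (0.93). *Nr1i3* was closest to *Slc6a16* (0.97), *Uck1* (0.97) and *Dhrs7b* (0.96), and *Nr1i2* to *Wbp11* (0.99), *Cebpb* (0.98) and *Slc19a2* (0.97). These are the highest of 12538 genes compared over 9 samples, and such a selection gives high r even among unrelated genes. The livers also share their depth and tissue makeup. *Cyp2b13* was at the floor in all 4 young livers, so its r rested mainly on the 5 old ones. Between members, r was 0.76 for *Cyp2b9* with *Cyp2b13*, 0.79 for *Cyp2b9* with *Nr1i3*, 0.45 for *Cyp2b9* with *Cyp2b10* and 0.43 for *Cyp2b10* with *Nr1i3*. *Nr1i2* was at -0.37 with *Cyp2b9* and -0.04 with *Cyp2b10*.

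In adipose tissue *Cyp2b10* was the sole member with an appreciable level, and that at 5 months. It was 52.6 in mouse A, 177 in mouse B, 17.8 in mouse C and 4.60 in mouse D. At 20 months it was 0.15, 0.55, 0.06, 0.14 and 0 in replicates 36 to 40, which held 0 to 14 reads each. The groups did not overlap, although the young samples ranged widely. The means were 62.9 ± 78.4 (SD, n = 4) and 0.179 ± 0.214 (SD, n = 5). The log2 change was -4.76 (standard error 0.80), the most negative of the 14005 genes tested in adipose tissue. It passed the filter through the 4 young samples alone, so it could not be fitted without any of them. In adipose tissue 19.1% of genes were called between the ages, 9.75% higher and 9.35% lower at 20 months. *Cyp2b10* was chosen on this contrast too.

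Markers of other cell types were measured in the same adipose samples. The sum of the 10 hepatocyte markers, all above the floor, was 19.02, 9.49, 76.6 and 64.5 in mice A, B, C and D and 276, 5.18, 169, 5.62 and 19.1 in replicates 36 to 40. Mouse B had the most *Cyp2b10* and the lowest sum of the young samples, and replicate 36 had the highest sum of all and 0.15 of *Cyp2b10*. *Cyp2b9* was 0.21 in replicate 36, 0.24 in replicate 38 and at or under the floor in the other 7 samples. The summed 4 cholangiocyte markers were 21.7 to 84.7 at 5 months and 8.25 to 44.0 at 20 months, the 5 mesothelium markers 62.5 to 129 and 32.02 to 70.9, and the 5 muscle fibre markers 327 to 828.7 and 98.9 to 559. The 4 B cell markers were 2.96 to 15.1 and 10.98 to 150, and the 4 macrophage markers 235 to 488 and 379 to 1304. The 8 pericentral markers, which include *Glul*, summed to 2743 to 4061 and 700.2 to 1423, and the 4 brown adipocyte markers to 2.17 to 3.58 and 4.80 to 9.01. The 6 intestinal epithelium markers summed to 31.8 to 39.9 and 18.9 to 33.9, with the defining *Cdx1* and *Cdx2* at or under the floor. The 6 adipocyte markers overlapped, at 6057 to 13587 and 8686 to 12986. The part of these cell types in the *Cyp2b10* difference was not tested.

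**Figure D3:**
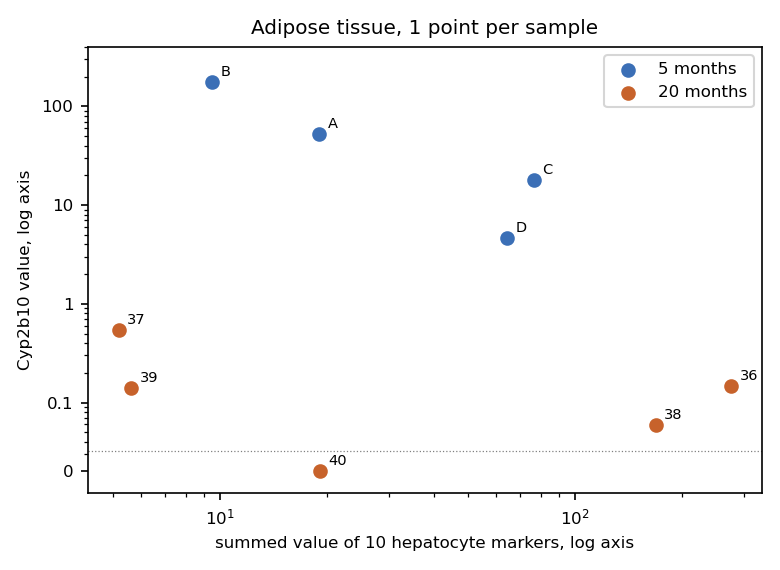
*Cyp2b10* value (log axis, with 0 drawn below the dotted line) against the summed value of 10 hepatocyte markers (log axis) in the 9 adipose samples, labelled by mouse or replicate number. The 4 samples at 5 months lie at 4.60 to 177 and the 5 at 20 months at 0 to 0.55 over an overlapping range of hepatocyte signal.

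Both receptors were at trace levels in adipose tissue. *Nr1i2* was 0.51, 0.74, 0 and 0.55 in the young samples and 0.29, 0, 0.12, 0.14 and 0 in the old ones, at most 20 reads each. *Nr1i3* did not exceed 0.26 at 5 months or 0.38 at 20 months, and its highest values were in replicates 36 and 38, the samples with the most hepatocyte signal. *Cyp2b10* in young adipose tissue was therefore measured beside little transcript of either receptor. The genes closest to adipose *Cyp2b10* over the 9 samples, after subtraction of the age means, were *Gm32287*, *Ipmk* and *Cask* (each r = 0.98), among 13871 compared. The 5 old values were near the floor, so r was set mostly by the 4 young samples. Selection from that many genes gives such r even without a link.

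Skeletal muscle held almost none of the 5 transcripts. *Cyp2b9* was seen as 1 read and *Cyp2b13* as 0 reads in the 9 samples. *Cyp2b10* was 0.55 in mouse C (7 reads) and 0.43 in replicate 60 (6 reads), and 0 in the other 7. *Nr1i3* reached 1.10 in mouse C, and *Nr1i2* 0.31 in the same sample. That sample had the highest sum of hepatocyte markers in muscle, 462, against 0.864 to 79.9 in the others, whereas replicate 60 had a sum of 0.926. None of the 5 genes passed the filter in muscle, where 19.3% of genes were called between the ages, 9.13% higher and 10.1% lower at 20 months.

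Tissues were compared in a single limma fit over all 27 samples. The age changes that chose the cytochromes rest on the same high groups, so their tissue differences are given with no test. Both receptors reached the filter value in every liver, in no adipose sample and, in muscle, only for *Nr1i3* in mouse C. The receptors thus passed the filter through liver, so their differences from liver are also given with no test. The receptors were liver transcripts at both ages. *Nr1i3* was higher in liver than in adipose tissue by 6.85 at 5 months (standard error 0.20) and by 7.42 at 20 months (0.18) on the log2(value + 1) scale. *Nr1i2* was higher by 5.92 (0.17) and 6.19 (0.15). Against muscle, *Nr1i3* was higher in liver by 6.59 and 7.45 and *Nr1i2* by 6.33 and 6.28. The labels name a different RNA extraction kit for liver than for adipose tissue and muscle, whereas the study's methods name the same kit for all samples. If the labels hold, kit and tissue cannot be told apart.

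*Cyp2b10* was present in both liver and adipose tissue at 5 months. There its values in liver (61.3 to 138) and adipose tissue (4.60 to 177) overlapped, with a log2 difference of 1.61 (standard error 0.67). The log2 difference of adipose tissue from muscle was 4.83 (0.67) and that of liver from muscle was 6.44 (0.67). At 20 months liver was above adipose tissue by 2.99 (0.60) and above muscle by 3.11 (0.60), and adipose tissue and muscle were both near the floor. Whether the age change differed between tissues was not tested. By mean, *Cyp2b10* was highest in young liver, then young adipose tissue and then old liver. Young adipose tissue overlapped with both of its neighbours in this order, and the remaining 3 groups, at or near the floor, could not be separated.

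*Cyp2b9* and *Cyp2b13* were liver transcripts at 20 months. On the log2 scale *Cyp2b9* was above adipose tissue by 6.36 (standard error 0.43) and above muscle by 6.47 (0.43), and *Cyp2b13* by 3.66 (0.42) and 3.69 (0.42). At 5 months *Cyp2b9* was measurable in the livers of mice C and D and at 0 reads in adipose tissue and muscle. *Cyp2b13* was at or under the floor in all 3 tissues at 5 months. A small log2 difference of *Nr1i2* between adipose tissue and muscle at 5 months (0.41, limma adjusted p = 0.0294) was lost when any of 6 of the 8 samples was left out, adipose mice A, B and D and muscle mice A, B and D (adjusted p of 0.0654 to 0.114).

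These tissues differ in most genes, and the differences above are to be read against that. Between liver and adipose tissue 76.4% of the 15572 genes tested were called at 5 months and 74.5% at 20 months, between liver and muscle 72.9% and 77.2%, and between adipose tissue and muscle 72.8% and 76.0%.

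Of the neighbours of the Cyp2b genes on chromosome 7, few were measurable in liver. Of 10 other measured genes of the Cyp2 cluster, 4 passed the filter, 1 rose and 0 fell, beside 19.8% of all genes called. The median log2 change of the 4 was 0.51 against 0.00 over all genes tested. The gene that rose was *Cyp2a22*, a Cyp2a paralog, by 2.90 (standard error 0.50, limma adjusted p = 0.00866). It was 3.18 ± 2.97 at 5 months (SD, n = 4) and 26.1 ± 12.2 at 20 months (SD, n = 5), and passed in all 14 alternatives. The abundant *Cyp2a5* (0.53, adjusted p = 0.164), *Cyp2a12* (0.50, 0.0649) and *Cyp2f2* (-0.01, 0.970) did not pass. The count was 2 without replicate 16 or mouse D and also by DESeq2.

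Targets of CAR and PXR moved in both directions while *Cyp2b10* was lower. Of 24 tested in liver, 6 rose and 2 fell, against 19.8% of all genes called in either direction, and the median log2 change was 0.27. *Gstm3*, a glutathione transferase, rose by 2.17 (standard error 0.56, limma adjusted p = 0.0245), from 16.4 ± 5.43 to 99.3 ± 73.8. The aldehyde dehydrogenases *Aldh1a1* (1.03, 0.0284) and *Aldh1a7* (1.02, 0.0340), the cytochrome *Cyp2c55* (0.95, 0.0404) and the transferase *Gstt1* (0.85, 0.0310) also rose. *Por*, the reductase that passes electrons to microsomal cytochromes P450, fell by 1.29 (0.36, 0.0306), from 1205 ± 481 to 505 ± 202. The classical PXR target *Cyp3a11* was 3458 ± 1399 and 4177 ± 1012 (adjusted p = 0.458), and the CAR target *Cyp2c29* 544 ± 201 and 684 ± 286 (0.602). The count of 8 was 1 without replicate 17, replicate 18 or mouse B, 2 without mouse A, 2 without the filter and 14 by DESeq2. Most of these calls thus depended on the samples kept and on the method. The count over all genes moved too, from 2508 to 959 without replicate 18 and to 980 without mouse B. *Gstm3* lost its call only without replicate 18 or mouse B (adjusted p up to 0.0738).

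The partners and regulators of the receptors included *Egfr*, the receptor whose signal holds CAR in the cytoplasm. Of 20 genes tested in liver, 1 rose and 4 fell, beside 19.8% of all genes called, with a median log2 change of -0.30. *Egfr* fell by 1.24 (standard error 0.24, limma adjusted p = 0.0116), from 222 ± 51.3 (SD, n = 4) to 97.0 ± 39.96 (SD, n = 5), and passed in all 14 alternatives. The corepressor *Ncor1* fell by 0.53 (0.12, 0.0154) and also passed in all 14. The coactivators *Ncoa2* (fell by 0.48, adjusted p = 0.0218) and *Ncoa1* (fell by 0.45, 0.0233) and the phosphatase subunit *Ppp1r16a* (0.49, 0.0197, higher) moved by less. *Rxra*, the main RXR of liver, was 577 ± 37.6 and 493 ± 84.4 (adjusted p = 0.231). The calls of *Ppp1r16a* and *Ncoa1* were lost without replicate 18 or mouse B, that of *Ncoa1* also without mouse D, and that of *Ncoa2* without mouse A or B (adjusted p up to 0.0697). The count of 5 was 3 without replicate 18, 2 without mouse B, 8 without replicate 16 and 9 by DESeq2.

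Since *Cyp2b9* and *Cyp2b13* are female-predominant, the other sex-dependent liver genes were examined. Of 16 further female-predominant genes, 6 passed the filter (median log2 change 0.18), 3 were called, beside 19.8% of all genes, and the other 10 stayed under the filter. *Hao2*, a hydroxyacid oxidase, was at 0 in all 4 young livers and 3.23 ± 2.58 (SD, n = 5) in the old ones, and *Cyp3a41a* was 0.0477 ± 0.0955 and 1.21 ± 0.873. Both were called higher, but passed the filter through the old livers alone, so their calls are no support and are given with no p. *Cyp17a1*, which makes androgen precursors, fell by 3.37 (standard error 0.33, adjusted p = 0.00124), from 88.1 ± 50.6 to 6.78 ± 1.74, and passed in all 14 alternatives. Without replicate 17, 18, 19 or 74 the count of 3 was 1, because *Hao2* and *Cyp3a41a* then failed the filter and were not tested.

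Of 14 male-predominant genes tested, 0 rose and 4 fell, with a median of -0.68, in a tissue where 9.79% of genes fell. *Serpina1e*, of the alpha-1-antitrypsin family, fell by 2.54 (standard error 0.53, limma adjusted p = 0.0127), from 7160 ± 2370 to 1492 ± 1064, and passed in all 14 alternatives. The fatty acid hydroxylase *Cyp4a12b* (fell by 1.10, 0.0346), *Gstp1* (fell by 1.04, 0.0219) and *Ugt2b38* (fell by 1.70, 0.0496) also fell, and lost their calls in 7, 4 and 12 alternatives. The 12 of *Ugt2b38* include DESeq2, which gave it no adjusted p. *Mup20*, at 6088 ± 560 and 8368 ± 3222 (adjusted p = 0.359), and *Cyp7b1*, at 142 ± 69.5 and 139 ± 21.98 (0.849), did not pass. The count was 8, with 1 higher, without replicate 16, 2 without replicate 17, replicate 19, mouse C or mouse D, and 1 without replicate 18, mouse A or mouse B. *Cyp2a22*, *Cyp3a41a*, *Cyp4a12b*, *Serpina1e* and *Ugt2b38* have close copies, so their values are uncertain in the way described for *Cyp2b13*. Shared words were not counted for these genes or for the others named from the lists, so the same limit may hold for those.

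Of 12 genes of the growth hormone and sex hormone axis in liver, 1 rose and 1 fell, beside 19.8% of all genes called, with a median of 0.01. The growth hormone receptor *Ghr* rose by 0.50 (limma adjusted p = 0.0331) and *Onecut1* (HNF6) fell by 0.90 (0.0399). *Stat5b*, which carries the growth hormone signal, was 83.3 ± 10.3 and 83.8 ± 11.5 (adjusted p = 0.976), and *Esr1*, the estrogen receptor, gave an adjusted p of 0.944. The count was 0 without replicate 18, replicate 19, mouse A or mouse B, and 1 without replicate 16, replicate 17, mouse C or mouse D.

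**Figure D4:**
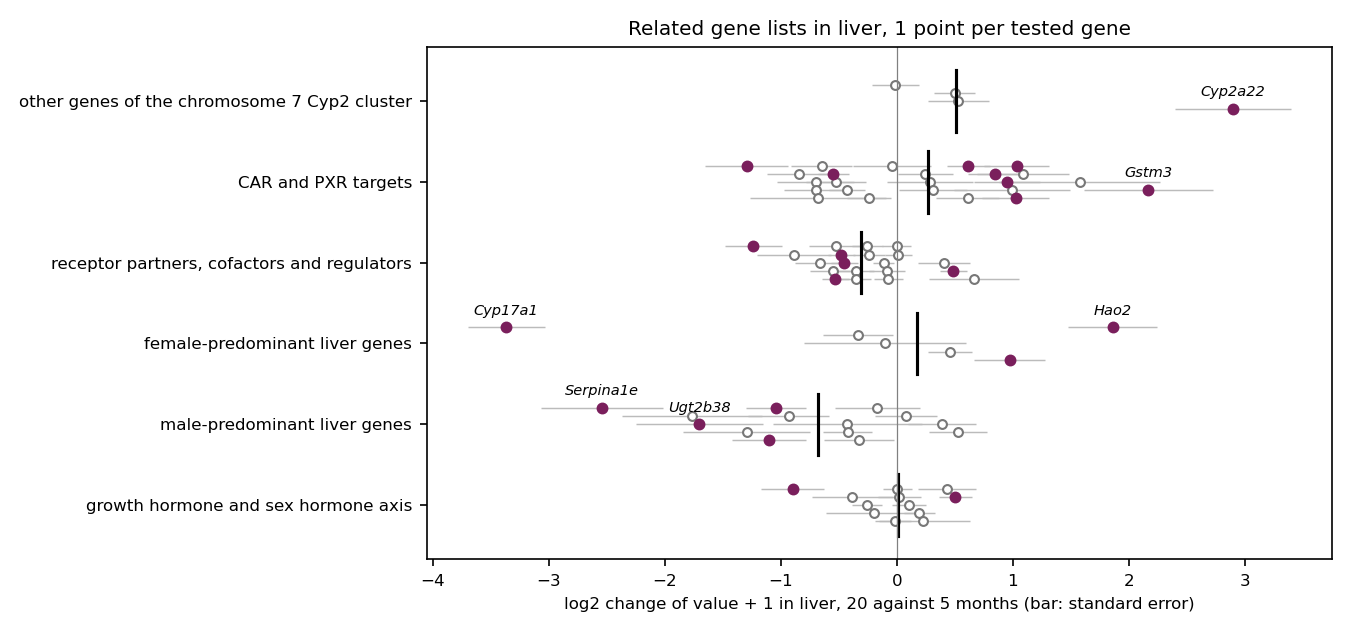
Log2 change of value + 1 in liver, 20 against 5 months, of each tested gene of 6 related lists, with standard errors. Filled points had a limma adjusted p under 0.05, black bars are list medians, and *Cyp2a22* (2.90) and *Cyp17a1* (-3.37) lie farthest out.

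In the other tissues *Por* and *Egfr* again fell. In adipose tissue *Por* fell by 0.50 (limma adjusted p = 0.0318) and *Egfr* by 0.77 (0.0311), and in muscle they fell by 0.70 (0.00472) and 1.17 (0.0102). The young samples of the 3 tissues came from the same 4 mice, so these are not independent observations of the young state. *Rxrg*, an RXR of muscle and adipose tissue, rose by 1.16 in adipose tissue (0.0430) and by 0.74 in muscle (0.0192). *Cyp2f2* fell in adipose tissue by 2.97 (standard error 0.62, adjusted p = 0.0201), from 8.63 to 91.4 at 5 months to 0.777 to 4.44 at 20 months. The sample with the most *Cyp2f2*, mouse A, was not the sample with the most *Cyp2b10*.

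In adipose tissue 1 of 2 tested genes of the cluster fell, 2 of 14 CAR and PXR targets fell, and 1 of 19 partners rose and 5 fell, with medians of -1.72, -0.05 and -0.35, beside 19.1% of all genes called there. Without mouse A or B the partners counted 0 and without replicate 37, 38, 39 or 40 they counted 1, in place of 6. The targets counted 0 without replicate 38, replicate 39, replicate 40, mouse A or mouse B and 1 without replicate 37 or mouse C, and the cluster counted 0 without replicate 39 or mouse B. In muscle the counts were 1 of 1 fallen, 1 of 10 risen and 3 fallen, and 1 of 18 risen and 2 fallen, with medians of -1.22, -0.32 and -0.01, beside 19.3% of all genes called. There the targets counted 2 in place of 4 without replicate 57, replicate 59 or mouse B, and the partners 5 in place of 3 without mouse C. Of the axis genes *Igfals*, which stabilises circulating IGF1, rose in adipose tissue by 2.54 (limma adjusted p = 0.0118), and the growth hormone targets *Socs2* and *Cish* fell there by 0.99 (0.0193) and 0.71 (0.0486). In muscle *Socs2* fell by 0.76 (0.00886), *Cish* by 1.12 (0.00728) and *Igf1* by 1.04 (0.0338). Over 11 axis genes tested in each, the medians were -0.15 and -0.16, with 1 risen and 2 fallen in adipose tissue and 1 risen and 4 fallen in muscle. The 3 calls in adipose tissue were 1 without mouse A or B, and the 5 in muscle were 3 without replicate 57, 58 or 60.

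The remaining genes of the lists that passed are given by value. *Sult1e1*, the estrogen sulfotransferase, fell in adipose tissue by 1.40 (limma adjusted p = 0.0499), and *Ncoa1* fell there by 0.67 (0.0397). In muscle *Aldh1a1* rose by 0.79 (0.00145), *Cyp2f2* fell by 1.22 (0.00711), *Abcb1a*, a drug efflux pump, fell by 0.50 (0.0247), the chaperone *Hsp90aa1* fell by 1.91 (0.0434) and *Serpina1e* fell by 1.88 (0.0425). *Serpina1e* in muscle was highest in mouse C, at 17.1, the sample with the most hepatocyte signal. By limma, 0 of 4 female-predominant and 0 of 6 male-predominant genes were called in adipose tissue, beside 19.1% of all genes. There 1 and 3 had an unadjusted p under 0.05. By edgeR 0 and 0 were called, and by DESeq2 1 and 2. Without mouse D the limma counts were 2 and 1. In muscle 0 of 3 female-predominant genes were called (1 with an unadjusted p under 0.05, 0 by edgeR and 1 by DESeq2), and 1 without mouse C or D. Of 5 male-predominant genes 1 was called there, and 0 by DESeq2, beside 19.3% of all genes called by limma in muscle. With so few genes tested, the counts of sex-dependent genes in these tissues say little. In adipose tissue the calls of *Por*, *Egfr*, *Ncoa1*, *Rxrg*, *Sult1e1* and *Cish* were each lost without any of replicates 37 to 40 or mice A and B (adjusted p up to 0.130 over all alternatives). Those of *Egfr*, *Cish* and *Sult1e1* were also lost without mouse C and that of *Sult1e1* without mouse D. That of *Cyp2f2* was lost without replicate 39 or mouse B (up to 0.0525) and that of *Socs2* without mouse A or B (up to 0.0620). In muscle *Abcb1a* was lost without replicate 57, replicate 59, mouse A or mouse B (up to 0.0606), *Hsp90aa1* without any of replicates 57 to 60 or mouse D (up to 0.0967), and *Igf1* without replicate 57, 58 or 60 or mouse D (up to 0.0789). *Serpina1e* was lost without any old muscle that left it testable, replicates 56, 57, 59 and 60 (up to 0.0917).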

How the data were processed

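RNA of liver, omental adipose tissue and skeletal muscle was sequenced by NovaSeq. Per gene, reads were mapped and counted by the authors with CLC Genomics Workbench. The deposited values are a signal, headed CPM in the table but scaled further by 1 factor per library. The design had assumed CPM. Reads were recovered as whole multiples of the value of 1 read (100% whole within 0.01). Which genome and annotation CLC used is not given in the sources used here, and coordinates are of GRCm38.p6. Whether counting used strand is not stated.

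Labels gave the tissue and age of each sample. The 5 genes and all lists were chosen with earlier results of these data known. Ages were compared within a tissue, and tissues over all 27 samples, by limma 3.58.1 (R 4.3.3) on log2(value + 1), for genes reaching a value of 1 in 4 or more samples. Adjustment was by Benjamini-Hochberg, and the threshold was 0.05. Nothing in the labels says that samples of a group differ beyond the animal number, and p-values measure the spread between these samples. Among 48 pairs of samples of a group, 0 held identical values. At 5 months the mouse numbers pair the tissues. Deviations of the same mouse correlated by -0.02 to 0.29 over 12 pairs of tissues. Named from each list were up to 6 called genes with the largest change in liver and 3 in each other tissue. *Cyp3a11*, *Cyp2c29*, *Rxra*, *Mup20*, *Cyp7b1*, *Stat5b*, *Esr1* and the uncalled Cyp2 neighbours were named after their values were seen. Alternatives were a pseudocount of 0.5, no filter, median-of-ratios scaling, edgeR 4.0.16 and DESeq2 1.42.0 on recovered reads, a replicate block for the mouse, and each sample left out in turn. The age test was tested on simulated reads.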

Additional observations from a re-analysis of the deposited data

Results flagged for a closer look

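Among 106 groups of 4 or 5 samples examined for the genes named here, 12 held a sample standing apart from the rest by Dixon's ratio at its 95% limit. For normally distributed values chance flags about 1 in 20 groups. Where all other samples are at 0, a sample above the floor gives the largest ratio possible. Some groups here were of that kind, so that rate is no yardstick for the 12 flags. Of the 5 genes described, these were low values in adipose tissue and muscle: *Cyp2b10* in adipose tissue at 20 months was 0.545 in replicate 37 against 0 to 0.147, *Cyp2b10* in muscle was 0.548 in mouse C and 0.428 in replicate 60 against 0 in the others, and *Nr1i2* in muscle was 0.313 in mouse C against 0.

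In muscle at 5 months, mouse C also stood apart for *Cish* (5.17 against 2.92 to 3.07) and *Serpina1e* (17.1 against 0.231 to 2.90). At 20 months, replicate 58 stood apart for *Serpina1e* (1.01 against 0) and replicate 56 for *Hsp90aa1* (123 against 57.5 to 68.3). Adipose *Cyp2f2* at 5 months was 91.4 in mouse A against 8.63 to 21.7.

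In old liver, replicate 16 stood apart for the male-predominant genes *Gstp1* (1647 against 670.3 to 843) and *Ugt2b38* (10.5 against 0.1002 to 1.95). *Serpina1e* and *Cyp4a12b*, the other male-predominant genes called in liver, were not flagged there. Replicate 16 also had the least *Cyp2b9* and *Cyp2b13*, and a link was not tested. *Egfr* was highest in replicate 19 (166 against 64.5 to 91.3).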

How the results depend on the processing

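The log2 changes of *Cyp2b9* (4.89 to 5.82), *Cyp2b10* in liver (-3.82 to -3.04) and *Nr1i3* (0.46 to 0.73) kept their sign in every alternative run, as did *Cyp2b13* and adipose *Cyp2b10*. *Cyp2b13* was at 8.24 by edgeR and 8.35 by DESeq2, and adipose *Cyp2b10* at -8.60 and -8.54. *Nr1i2* in liver ranged from -0.17 to 0.0043 when a sample was left out, the last without mouse B. *Nr1i3* in adipose tissue against muscle at 20 months was at most 0.070 with a sample left out and turned to -0.033 without adipose replicate 36 and -0.0016 without adipose replicate 38, both near the floor. Leaving out each sample in turn gave 959 to 3557 genes between the ages in liver (2508 with all samples), 397 to 3748 in adipose tissue (2674) and 1158 to 3796 in muscle (2451). Without the filter adipose tissue gave 1525 and muscle 1507, and DESeq2 gave 4348 in adipose tissue. With a replicate block for the mouse, the paired comparison of liver and adipose tissue at 5 months called 12097 genes (11895 without). The log2 differences of the receptors between tissues kept their sign with that block. The fits between tissues moved no count by over 1.5 times. Members with 3 reads or fewer could not be ordered at this depth. No paired analysis between ages was possible because the ages share no mouse number. Apart from construction (fewer samples or more genes tested), the cause of these shifts was not tested.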
